A study of Canis lupus familiaris with 4 samples.

Results

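The small RNA cargo of extracellular vesicles (EVs) holds 2 gene clusters that are paralogs of the miR-17-92 cluster: miR-106b-25 (cfa-mir-106b, cfa-mir-93 and cfa-mir-25) and miR-106a-363 (cfa-mir-106a, cfa-mir-18b, cfa-mir-20b and cfa-mir-363). The members were chosen by name, which gave 7 of the 673 rows of the deposited table, 3 from the first cluster and 4 from the second. EVs came from 2 canine mammary gland adenocarcinoma cell lines of the same dog, CHMp, which stems from its primary tumor, and CHMm, which stems from its metastasis, and 2 libraries were made per line. EVs of CHMp are called pTDEs and those of CHMm mTDEs. The cells of both lines were kept without serum and antibiotics while the EVs were collected. The labels name no drug and no transgene, and the study's methods, which describe luciferase-transfected derivatives of both lines, do not say which cells gave these EVs. Each origin is represented by 1 cell line of 1 animal, so tumor origin and cell line cannot be told apart. The study calls the replicates biological, but the labels do not say that they were separate cultures, so p-values measure the spread between these libraries, which may be technical.

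MicroRNAs (miRNAs) are short RNAs that are cut from hairpin transcripts and guide the silencing of mRNAs, mainly through their seed, bases 2 to 8 from the 5′ end. The miR-17 family, which holds miR-17, miR-20a, miR-20b, miR-93, miR-106a and miR-106b, shares 1 seed and is known to repress cell cycle inhibitors such as CDKN1A. miR-25 and miR-363 share another seed with miR-92a, miR-92b, miR-32 and miR-367, whose known targets include the proapoptotic gene BCL2L11, and miR-18b has the seed of miR-18a. The cluster miR-106b-25 lies inside the gene MCM7, a part of the replicative DNA helicase, and is known to be transcribed with it in dividing cells, whereas miR-106a-363 lies on the X chromosome. In RefSeq (UU_Cfam_GSD_1.0 assembly), all 7 members matched a gene by name, MIR106B, MIR93 and MIR25 lie within MCM7 on chromosome 6, and MIR106A, MIR18B, MIR20B and MIR363 lie together on chromosome X, with MIR19B-2 and MIR92A-2 between them.

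No file used here gives the mature sequences of the members. The 1045 predictions of miRDeep2 that accompany the study were searched for the seed of the miR-17 family (AAAGUGC), of miR-18 (AAGGUGC) and of miR-25 and miR-92 (AUUGCAC), starting at base 1 to 3 of the predicted mature sequence and of its reverse complement. For the miR-17 seed, 4 predictions held it in the reverse complement (0.383% of all) and 0 in the predicted strand itself. They are shown because they lie opposite to family members and because they show how little sequence separates these miRNAs. Each line gives the reverse complement, 5′ to 3′, with the seed in capitals, and the position of the predicted hairpin in CanFam3.1.
chr6:9498780-9498838, minus strand, opposite miR-93: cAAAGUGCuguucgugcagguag
chrX:104896522-104896574, plus strand, opposite miR-106a: AAAGUGCuuacagugcagguag
chr22:42478013-42478069, minus strand, opposite miR-17: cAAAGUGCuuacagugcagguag
chr22:42478462-42478515, minus strand, opposite miR-20a: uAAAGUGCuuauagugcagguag
The names rest on the chromosome and on what is known of these mature sequences, because the predictions carry no name. From the seed onward, the chromosome X sequence matched the miR-17 sequence with 0 mismatches in 22 bases and the miR-20a sequence with 1, and it differed from the miR-93 sequence by 4. Reads that lack the first base therefore cannot be assigned to miR-106a or miR-17, and their levels are uncertain against each other. The miR-18 seed was found in 1 prediction, on chromosome 2 in the predicted strand, and the miR-25 and miR-92 seed in 1, opposite the miR-92b locus on chromosome 7. None of the 4 miR-17 family predictions passed the score the authors required, so none is a row of the deposited table. The authors merged forward and reverse reads of each sample, and the part of this step in the opposite-strand predictions was not tested.

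Levels are given in CPM, reads scaled to a library total of 1000000, which were recovered from the deposited whole numbers. Where a pair of values is given for a cell line, replicate 1 comes first. A single read corresponded to 0.159 and 0.198 CPM in the pTDE libraries and 0.289 and 0.429 CPM in the mTDE libraries. These steps correspond to 6296519, 5053540, 3457171 and 2330384 reads in the same order. They are sums over all rows, in which identical copies of a miRNA count the same reads more than once. By these sums the mTDE libraries are shallower. For a miRNA at 0, the limit of detection was set at 3 reads, 0.476 CPM in the deepest and 1.29 CPM in the shallowest library, a limit that covers counting error only, since forward and reverse reads of 1 fragment can both be counted. A read spans a whole mature miRNA, so CPM are not divided by length. CPM are shares of a library, so fewer vesicles of a kind and less of a miRNA per vesicle cannot be told apart.

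The 2 clusters differed widely in level in both cell lines. miR-93 and miR-25 were at 2361 CPM or more in every library, miR-106b at 117 to 504 CPM and miR-106a at 6.13 to 63.5 CPM, and miR-20b, miR-18b and miR-363 were at or close to the limit of detection. Of the 7 members, 4 were above 3 reads in every library, the 3 of miR-106b-25 and cfa-mir-106a.

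**Figure D1:**
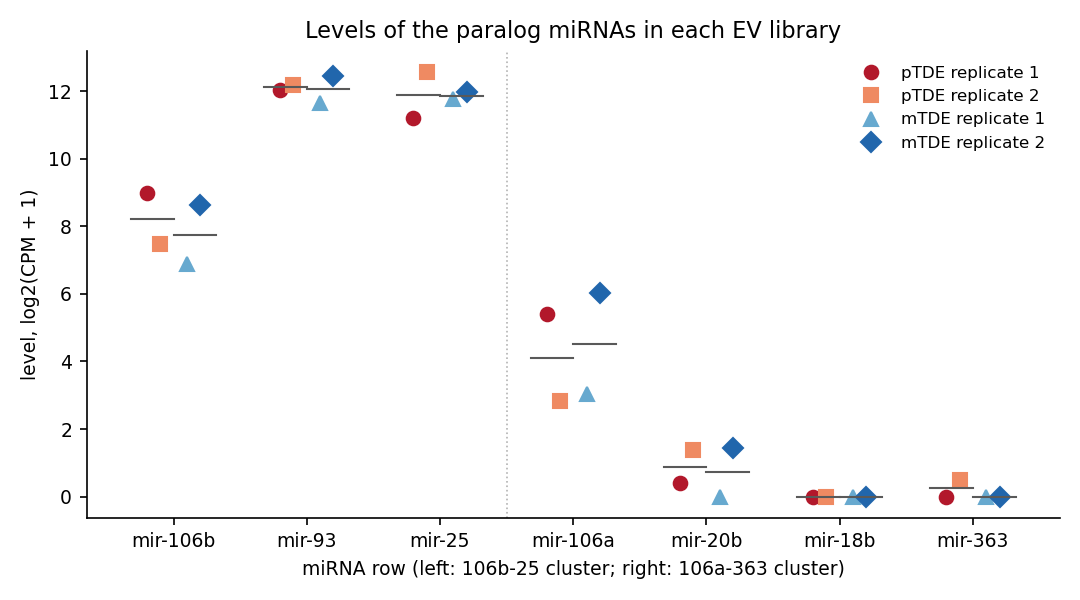
Level of each member as log2(CPM + 1) in the 4 libraries, with 1 symbol per library and gray lines at the mean of each cell line. miR-93 and miR-25 lie highest in every library, and the symbols of the cell lines overlap for every member above 0.

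miR-93, which has the miR-17 seed, was at 4168 and 4664 CPM in the pTDE libraries and 3221 and 5599 CPM in the mTDE libraries. The mTDE libraries held both its lowest and its highest value, so the cell lines overlapped. Its mean was 4416 ± 351 CPM over the pTDE and 4410 ± 1682 CPM over the mTDE libraries (SD, n = 2), at rank 30 and 37 of all rows. Its 1.74-fold range over the libraries was the smallest among the 4 members above 3 reads in all of them.

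miR-25, the member with the miR-92 seed, was at 2361 and 6058 CPM in the pTDE libraries and 3463 and 3998 CPM in the mTDE libraries. Here the pTDE libraries held both the lowest and the highest value. The mean was 4209 ± 2614 CPM over the pTDE and 3731 ± 378 CPM over the mTDE libraries (SD, n = 2). miR-93 and miR-25 could not be ranked against each other, because miR-93 was higher in pTDE replicate 1 and mTDE replicate 2 and miR-25 in the others, with ratios of miR-93 to miR-25 from 0.770 to 1.77.

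miR-106b, the first hairpin of its cluster and a further carrier of the miR-17 seed, was at 504 and 176 CPM in the pTDE libraries and 117 and 395 CPM in the mTDE libraries. It lay below miR-93 and miR-25 in each library. The replicates of 1 line differed 2.86-fold in pTDEs and 3.38-fold in mTDEs, while the means were 340 ± 231 and 256 ± 197 CPM (SD, n = 2).

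miR-106a, the only member of miR-106a-363 above 3 reads in all libraries, was at 41.1 and 6.13 CPM in the pTDE libraries and 7.24 and 63.5 CPM in the mTDE libraries. These values correspond to 259, 31, 25 and 148 reads. The low replicate of each line had fewer reads than the high one by several fold, 6.71-fold in CPM in pTDEs and 8.78-fold in mTDEs. Its mean was 23.6 ± 24.8 CPM over the pTDE and 35.4 ± 39.8 CPM over the mTDE libraries (SD, n = 2), each with an SD above the mean itself.

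The other 3 members of the X-linked cluster were barely detected. miR-20b, another carrier of the miR-17 seed, had 2 and 8 reads in the pTDE libraries and 0 and 4 reads in the mTDE libraries, at most 1.71 CPM. miR-363, which has the miR-92 seed, had 2 reads in pTDE replicate 2 (0.399 CPM) and 0 in the other 3 libraries. miR-18b had 0 reads in all 4 libraries, which allows up to 0.476 CPM in the deepest and 1.29 CPM in the shallowest. miR-20b was above 3 reads in replicate 2 of each line, where miR-18b and miR-363 were not, and the order of miR-18b and miR-363 is not detectable at this depth.

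Summed over the 3 members, miR-106b-25 made up 0.703% and 1.09% of the CPM in the pTDE libraries and 0.680% and 0.999% in the mTDE libraries. The sum of miR-106a-363 was 41.5 and 8.11 CPM in the pTDE libraries and 7.24 and 65.2 CPM in the mTDE libraries. The miR-106b-25 sum was thus 170-fold and 1344-fold higher than the miR-106a-363 sum in the pTDE libraries and 940-fold and 153-fold higher in the mTDE libraries. On the log2 scale with 1 CPM added to each sum, the ratio averaged 8.63 ± 1.55 (SD, n = 4) and was above 0 in 4 of 4 libraries. An exact two-sided sign-flip test over the libraries gave p = 0.125, the smallest value that 4 libraries allow. The ratio was 8.80 ± 2.02 in pTDEs and 8.46 ± 1.73 in mTDEs (SD, n = 2), a difference of 0.33 with an exact two-sided permutation p = 0.667 (adjusted p = 1.0 over the 3 permutation tests between the cell lines). The smallest p that 2 against 2 libraries allow is 0.333.

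The distance between the clusters depends on which rows stand for miR-106a-363. The X-linked locus also holds copies of miR-19b and miR-92a, and cfa-mir-19b-2 and cfa-mir-92a-2 had the same values as cfa-mir-19b-1 and cfa-mir-92a-1 of the miR-17-92 cluster in every library, so their reads cannot be assigned to a locus. With both copies added to the miR-106a-363 sum, the log2 ratio turned to -1.35 and -1.24 in the pTDE libraries and to -2.31 and -1.63 in the mTDE libraries, because the cfa-mir-92a-2 row alone reached 17897 to 33700 CPM. The statement that miR-106b-25 is the more abundant cluster holds for the members chosen by name, without these copies. Reads of miR-106a that lack the first base cannot be told from those of miR-17, so that row may not be unique to its locus.

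Within miR-106b-25 the make-up changed from library to library. miR-93 took 42.8% to 59.3% of the cluster, miR-25 33.6% to 55.6% and miR-106b 1.62% to 7.16%. The share of miR-106b was 7.16% and 1.62% in the pTDE libraries and 1.71% and 3.95% in the mTDE libraries, so that its highest and its lowest share were both found in pTDEs. miR-93 exceeded miR-106b by 8.28-fold to 27.6-fold, although both hairpins lie in MCM7. Within miR-106a-363, miR-106a made up 75.6% to 100% of the sum.

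**Figure D2:**
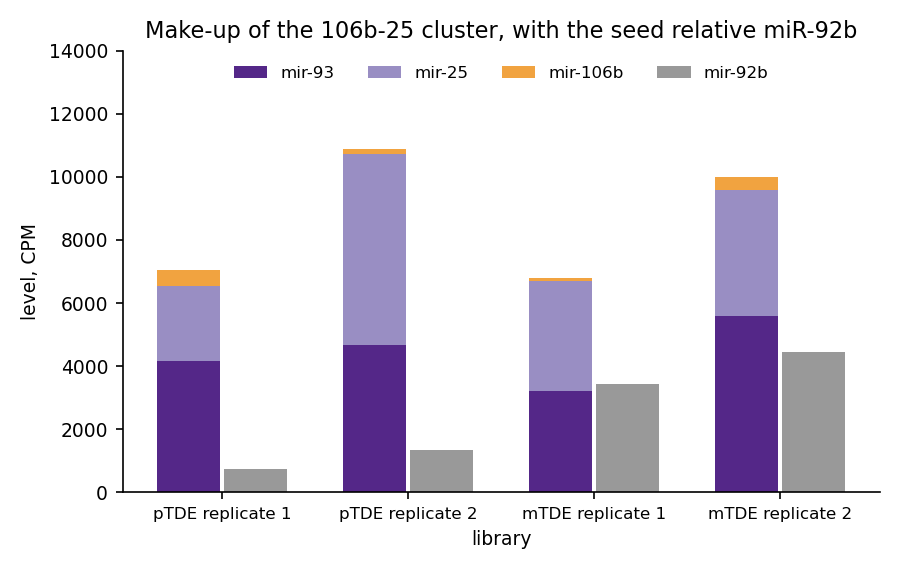
Stacked bars of the CPM of miR-93, miR-25 and miR-106b in each library, with gray bars for miR-92b, which shares the seed of miR-25. The stack ranges from 6801 to 10898 CPM with no separation of the cell lines, while miR-92b is higher in both mTDE libraries.

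Comparison of the cell lines asks whether EVs of the primary tumor line and of the metastatic line carry different amounts of these miRNAs. No member above 0 in every library was called different between pTDEs and mTDEs. limma was run on log2(CPM + 1) of 326 rows, each above 0 in both replicates of a line or of both, which included 5 of the 7 members and left out miR-18b and miR-363. Of the 4 members above 0 in every library, 0 had an adjusted p-value under 0.05 and 0 had an unadjusted p-value under 0.05. Over all rows tested, 0% were called higher and 1.84% lower in pTDEs, and 19.6% had an unadjusted p-value under 0.05. The cell lines overlapped for all 4. Of the rows tested, 53.4% had no overlap, 26.1% with pTDEs and 27.3% with mTDEs the higher. Only 231 rows were above 0 in every library, and a tested row at 0 in a whole line cannot overlap. The shares over the rows tested are therefore not like for like with these 4 members.

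miR-106b had a log2 fold change, pTDEs over mTDEs, of 0.47 ± 0.91 (SE, adjusted p = 0.80 by limma), with a 95% interval from -1.97 to 2.91. For miR-93 the log2 fold change was 0.05 ± 0.41 (SE, adjusted p = 0.96 by limma), with an interval from -1.06 to 1.17. That of miR-25 was 0.02 ± 0.56 (SE, adjusted p = 0.99 by limma), with an interval from -1.48 to 1.52. The interval was narrowest for miR-93, and even there it includes changes of more than 1 on the log2 scale in both directions. The log2 fold change of miR-106a was -0.41 ± 1.56 (SE, adjusted p = 0.91 by limma), with an interval from -4.59 to 3.77. For miR-20b the log2 fold change was 0.16, on a scale that understates changes of rows near 1 CPM. This row entered the fit through pTDEs alone, since it was at 0 in an mTDE library, so no test of it is given. The largest value in size, 0.47, lay below the median size over all rows, 0.95.

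The sign of each of these values rested on single libraries. Without mTDE replicate 1, the log2 fold changes of miR-106b, miR-93, miR-25 and miR-20b turned negative, to -0.40, -0.34, -0.08 and -0.55, and that of miR-106a fell to -1.90. Without mTDE replicate 2, miR-106a turned to 1.07 and miR-106b was at 1.35. Leaving out a pTDE library also turned the sign of each, to -0.28 for miR-106b without replicate 1 and, without replicate 2, to -0.03 for miR-93, -0.66 for miR-25, 0.87 for miR-106a and -0.32 for miR-20b.

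**Figure D3:**
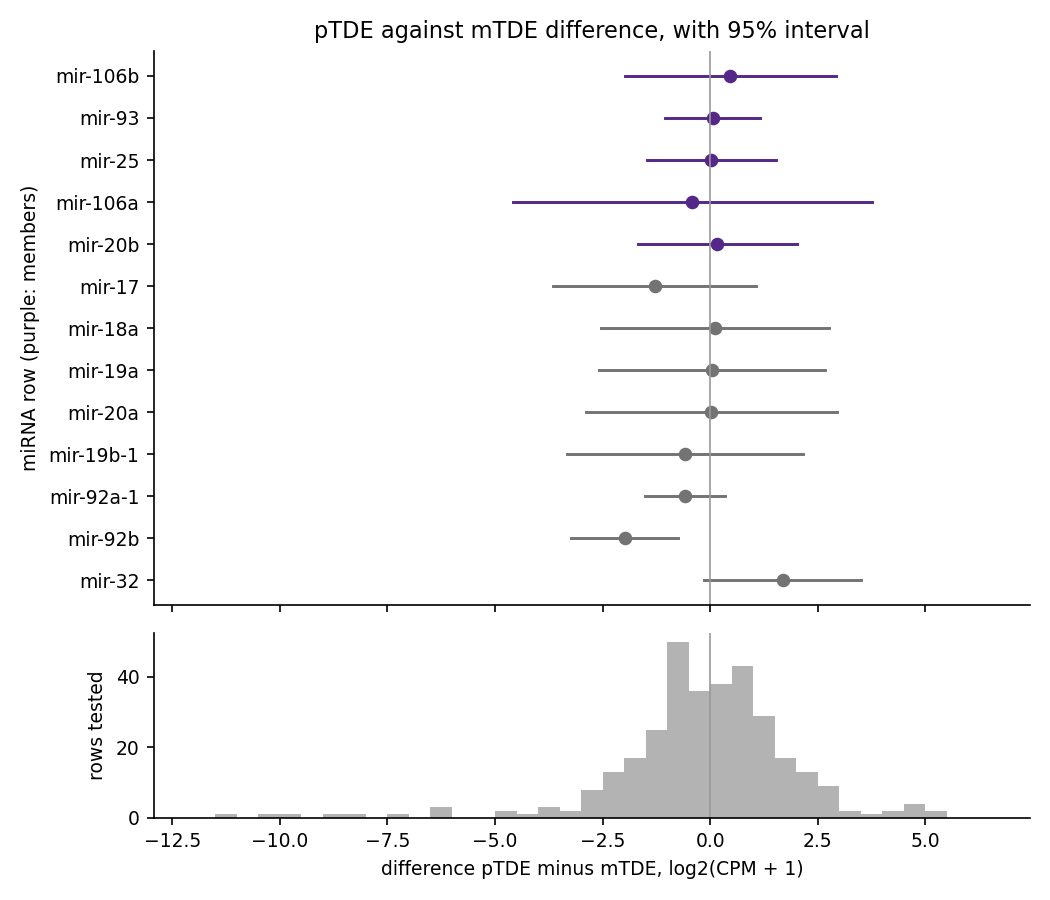
Upper panel, difference pTDEs minus mTDEs on the log2(CPM + 1) scale with its 95% interval from limma for the 5 members in the fit (purple) and for relatives in the miR-17-92 cluster and by seed (gray). Lower panel, number of rows tested by their difference. The intervals of the 4 members above 0 in every library include 0, and that of miR-92b does not. miR-20b and miR-32, which entered the fit through pTDEs alone, are drawn as a description.

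The cluster sums behaved in the same way. The miR-106b-25 sum had a mean of 8966 ± 2733 CPM over the pTDE and 8397 ± 2257 CPM over the mTDE libraries (SD, n = 2). On the log2 scale, the difference was 0.09 (exact two-sided permutation p = 0.667, adjusted p = 1.0). The miR-106a-363 sum had a mean of 24.8 ± 23.6 CPM over the pTDE and 36.2 ± 41.0 CPM over the mTDE libraries, a log2 difference of -0.25 (exact two-sided permutation p = 1.0, adjusted p = 1.0).

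The variation between replicates had a form that crossed the cell lines and divided the members in a way that was not by cluster. miR-106b and miR-106a both had their highest values in pTDE replicate 1 and mTDE replicate 2 and their lowest in pTDE replicate 2 and mTDE replicate 1. Of the members in the fit, 2 of 5 had this division, which 16.9% of the rows tested had. The opposite division, with pTDE replicate 2 and mTDE replicate 1 the highest, was found in 0 of 5 members and in 4.29% of the rows tested. miR-93 and miR-25 had neither division. In the miR-17-92 cluster, 4 of 6 rows had the first division, with pTDE replicate 1 and mTDE replicate 2 the highest. These were miR-18a, miR-19a, miR-20a and miR-19b-1, while miR-17 and miR-92a-1 had another order. These rows were singled out after their values were seen.

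miR-20a, with the miR-17 seed, was at 1515 and 379 CPM in the pTDE libraries and 336 and 1642 CPM in the mTDE libraries. miR-18a was at 151, 61.5, 46.3 and 173 CPM in the same order. miR-106b followed these 2 rows of another locus: its level had a 4.32-fold range over the libraries, but its ratio to miR-18a stayed between 2.28 and 3.32 and its ratio to miR-20a between 0.240 and 0.466. Its ratio to miR-106a ranged more widely, from 6.21 to 28.8.

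The likeness of 2 rows was measured as the root-mean-square difference of log2(CPM + 1) over the 4 libraries after each row was centered on its own mean, with 248 candidate rows of a mean of at least 10 CPM. The nearest rows to miR-106b were cfa-mir-708 (0.19), cfa-mir-18a (0.20) and cfa-mir-582 (0.26). For miR-106a they were cfa-mir-20a (0.38), cfa-mir-19a (0.57) and cfa-mir-29c-1 (0.62). Both thus had a row of the miR-17-92 cluster among their nearest 3, but the rows of that cluster were not all near. From miR-106b they ranged from 0.20 for miR-18a to 1.29 for miR-17. From miR-106a they ranged from 0.38 for miR-20a to 1.55 for miR-92a-1. The difference was 0.71 between miR-106b and miR-93 and 1.17 between miR-106b and miR-25, which lie in the same gene, and 0.47 between miR-93 and miR-25. Between miR-106b and miR-106a it was 0.72, no smaller than between miR-106b and miR-93. This measure also grows where the ranges of 2 rows differ in size. On the log2 scale the range was 3.18 for miR-106a, 2.10 for miR-106b and 0.80 for miR-93. miR-106b and miR-106a shared which libraries form the upper and the lower pair. The nearest rows to miR-93 were cfa-mir-222 (0.18), cfa-mir-96 (0.19) and cfa-mir-148b (0.23). Those to miR-25 were cfa_novel_28 (0.11), cfa-mir-182 (0.20) and cfa-mir-10b (0.25). With 4 points per row, these values describe the libraries and were not tested.

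**Figure D4:**
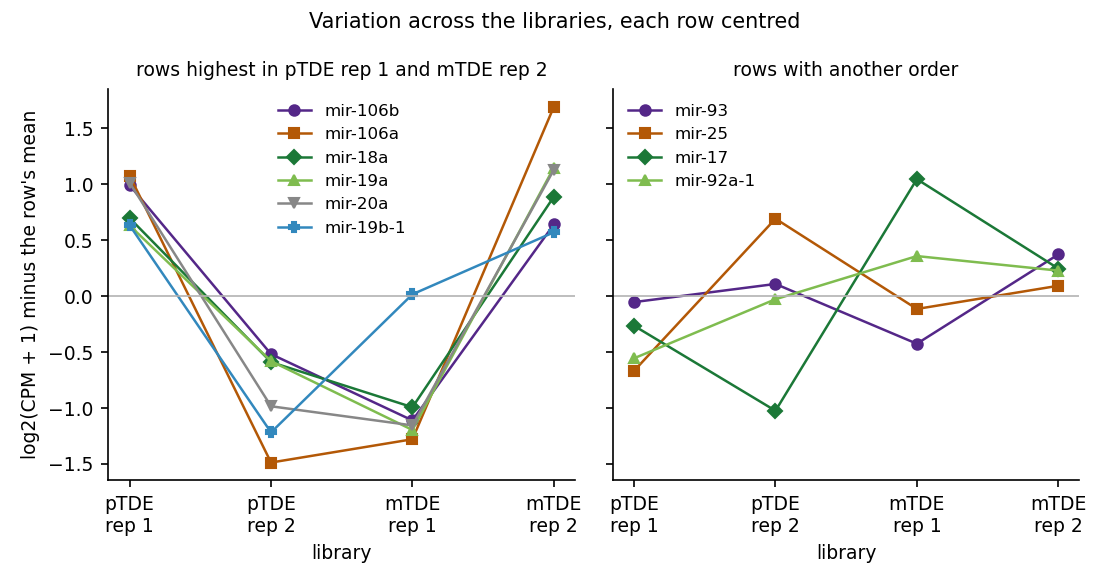
log2(CPM + 1) of each row minus its mean over the 4 libraries, for members with at least 10 reads in every library and the 6 rows of the miR-17-92 cluster, with lines that only join the points of 1 row. The left panel holds the 6 rows highest in pTDE replicate 1 and mTDE replicate 2, miR-106b and miR-106a among them, and the right panel holds the other 4, with miR-93 and miR-25.

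Of the 6 rows of miR-17-92, 0 were called between the cell lines by limma, and their median log2 fold change was -0.28, against -0.03 over the 326 rows. miR-17, which differs from miR-106a outside the seed only in the first base by what is known of both, was at 8.73 and 4.75 CPM in the pTDE libraries and 23.1 and 12.9 CPM in the mTDE libraries. It was higher in both mTDE libraries, with a log2 fold change of -1.29 ± 0.88 (SE, adjusted p = 0.44 by limma). The ratio of miR-106a to miR-17 ranged from 0.313 in mTDE replicate 1 to 4.93 in mTDE replicate 2, so the ratio of these rows was not fixed.

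Among the relatives by the seed of miR-25, miR-92b was at 728 and 1335 CPM in the pTDE libraries and 3439 and 4459 CPM in the mTDE libraries. Its cell lines did not overlap, mTDEs being the higher, at a log2 fold change of -1.99 ± 0.46 (SE, adjusted p = 0.10 by limma), which does not pass 0.05. The ratio of miR-92b to miR-25 was 0.308 and 0.220 in the pTDE libraries and 0.993 and 1.12 in the mTDE libraries. The log2 fold change of miR-92a was -0.58 ± 0.35 (SE, adjusted p = 0.39 by limma). miR-32, at 4.76 and 0.789 CPM in the pTDE libraries and 0 in both mTDE libraries, entered the fit through pTDEs alone, so no test of it is given, and miR-367 was at 0 in all 4 libraries.

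miR-93, miR-25 and miR-106b are known to be abundant in blood as well, so markers of other cells were read beside them. Of 5 red blood cell miRNAs listed, 2 are rows of the table. miR-451 was at 123 and 465 CPM in the pTDE libraries and 138 and 1423 CPM in the mTDE libraries, and miR-144 was at 0 in all 4 libraries. The row cfa-mir-486-3p, an arm of another red blood cell miRNA that was added after its values were seen, was at 110 and 349 CPM in the pTDE libraries and 486 and 1397 CPM in the mTDE libraries, with no overlap of the cell lines and a log2 fold change of -2.07 ± 0.87 (SE, adjusted p = 0.28 by limma). The 3 white blood cell miRNAs summed to 28.1 and 79.3 CPM in the pTDE libraries and 82.2 and 198 CPM in the mTDE libraries, and the liver miRNA miR-122 ranged from 98.5 to 158 CPM in pTDEs and from 364 to 570 CPM in mTDEs. The 6 stromal rows summed to 1552 and 1498 CPM in pTDEs and 152 and 1127 CPM in mTDEs. Among them, cfa-mir-199-1, cfa-mir-199-2 and cfa-mir-199-3 had identical log2 fold changes and SE, so this sum probably counts the same reads more than once. The 7 miRNAs of mammary epithelium summed to 73.9 and 104 CPM in pTDEs, with cfa-mir-200a, cfa-mir-200b, cfa-mir-141 and cfa-mir-429 at 0 in both libraries, and to 23718 and 26413 CPM in mTDEs. The part of any of these sources in the levels of the members was not tested.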

How the data were processed

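The authors removed adapters and filtered reads by length with cutadapt, merged both reads of a pair into 1 file per sample and counted known and newly predicted miRNAs with the quantifier of miRDeep2 (CanFam3.1). Tool versions are not given in the sources used here. The lower length limit is close to the length of mature miRNAs, so shorter forms are counted only through longer variants. HiSeq and NovaSeq instruments were used, and which library ran on which is not stated. The per-library numbers that the authors deposited are handled as a score, because they are named CPM but have the form of log2(CPM + 1) times a constant s of the library, rounded. The edgeR comparison that the authors deposited beside them (log2 fold change, mean log2 CPM, likelihood ratio, p-value and false discovery rate) was not used.

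CPM were computed as 2 to the power of (number / s), minus 1, where s makes a library total 1000000. The worth of a read is the largest step that divides every distinct CPM value under 20. Rounding of the numbers and of CPM to 2 decimals was allowed for. In each library 100% of these values fitted the step, which follows largely from how it was chosen and is no separate check. limma 3.58.1 (R 4.3.3) with a mean-variance trend and Benjamini-Hochberg adjustment was run on log2(CPM + 1) of 326 rows. Its prior degrees of freedom were 2.4, so its variances lean on the other rows. Python 3.11.15 served for the conversion (numpy 2.4.6, pandas 2.3.3) and the exact tests of cluster sums (scipy 1.17.1). Conversion and fit were tested on simulated data. edgeR was not run, since the deposited numbers are not counts and whole reads can be recovered exactly only for low values. voom was run on the rounded reads as an alternative.

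The members, the lists of relatives and markers, and the tests were chosen with earlier results of these data known. Named miRNAs are the 7 members, the miR-17-92 rows, the copies at the X-linked locus, relatives by seed, and the 3 rows nearest in pattern to each member with at least 10 reads in every library. Alternatives were pseudocounts of 0.1 and 5 CPM, other row filters, deposited values read as CPM, median-ratio scaling, eBayes with no trend, voom, only known miRNAs, a replicate block, and leaving out each library, where the lone library of a line is assumed to vary like the other line. The number of members called in the fits with a library left out was added after the data were seen and is not given here.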

Additional observations from a re-analysis of the deposited data

How the results depend on the processing

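With limma, 0 of the 4 members above 0 in every library were called in the 10 other fits that kept all libraries. This held at an adjusted and at an unadjusted p-value under 0.05. Their lowest adjusted p-value was 0.45 by limma, for miR-106b with deposited values read as CPM. In the 10 fits that kept all libraries no member in the fit changed sign, but some values moved. The log2 fold change of miR-20b, 0.16, was 0.03 with a pseudocount of 5 CPM and 0.98 with 0.1 CPM. With deposited values read as CPM it was 3.89, and that of miR-106a, -0.41, reached -0.01. miR-20b was left out of the fit with a mean of at least 10 CPM. With each library dropped once, log2 fold changes ranged from -0.40 to 1.35 for miR-106b, from -0.34 to 0.45 for miR-93, from -0.66 to 0.70 for miR-25, from -1.90 to 1.07 for miR-106a and from -0.55 to 0.88 for miR-20b, and that of the sums from -0.23 to 0.40 for miR-106b-25 and from -1.75 to 1.26 for miR-106a-363. Median-ratio scaling moved the median over all rows by 0.25, from -0.03 to 0.22, and the members with it, to 0.71 for miR-106b, 0.30 for miR-93, 0.26 for miR-25, -0.17 for miR-106a and 0.34 for miR-20b; the miR-106a-363 sum, at -0.25, was then at -0.01, and it turned to 0.25 with deposited values read as CPM. The mean log2 ratio of the cluster sums, 8.63, was 2.68 with deposited values read as CPM, because those are on a compressed scale, turned to -1.63 with cfa-mir-19b-2 and cfa-mir-92a-2 added to the miR-106a-363 sum, and ranged from 8.10 to 9.10 with a library left out. The number of rows called, 0 higher and 6 lower in pTDEs, was 28 and 11 with a pseudocount of 0.1 CPM, 39 and 11 with deposited values read as CPM, 5 and 9 with median-ratio scaling, 4 and 9 without a trend, 5 and 11 with voom, 4 and 9 with known miRNAs only, and 0 to 37 and 0 to 4 with a library left out. With the replicate number as a block it was 0 and 7, and 0 of the 4 members above 0 in every library were called. The labels do not say that a number marks a shared batch, and same-numbered deviations from the line means correlated with r = 0.15 over 326 rows, so the numbers were not taken as pairs. Read number limits the 3 scarce members: values of 0 to 3 reads cannot be told from each other, and miR-18b and miR-363 had no value above that.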
